A study of Sus scrofa with 15 samples.

Results

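The resting fibroblast markers are a set of 10 genes chosen by symbol: PDGFRA, DCN, LUM, DPT, PI16, CD34, MFAP5, SFRP2, SFRP4 and APOD. These genes, and the lists set beside them, were chosen with earlier results of these data known. Their counts and medians beside those of all genes are therefore a description and no independent support. All 10 have a row in the table of 26654 genes, and all 10 passed the filter on low counts in the fits of 9, 6 and 15 libraries. They were measured by sequencing of polyadenylated RNA in 15 libraries of pig (Sus scrofa) penile corpus cavernosum, the erectile tissue of the penis, as 5 groups of 3, named normal, defect, ECs+ implantation, implantation A and implantation B. The design compares normal, defect and implantation A in pairs, and ECs+ implantation with implantation B. No strain, genotype, age, sampling time or number of animals is given for any group, and neither the implants, the difference between A and B, nor the abbreviation ECs is spelled out. Nothing says that the 3 libraries of a group come from separate animals, so p-values cover only how these libraries vary, which can be technical.

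Fibroblasts of connective tissue make and maintain the extracellular matrix, and in vessel-rich tissue a part of them lies in the adventitia around vessels. Those of uninjured tissue are commonly recognised by the receptor PDGFRA, by the proteoglycans and matrix proteins DCN, LUM, DPT and MFAP5, by the surface or secreted proteins PI16 and CD34, by the Wnt modulators SFRP2 and SFRP4, and by the lipid carrier APOD. None of these transcripts is exclusive to resting fibroblasts: CD34 is also made by endothelium and blood progenitors, APOD by cells of peripheral nerve, and several of the matrix genes by fibroblasts of wounds and scars. In bulk tissue, more cells of a type and more RNA per cell cannot be told apart.

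Levels within a gene are given as CPM, counts relative to the library's total after TMM scaling, which sets the libraries to a common level for most genes, here over all 15 libraries. Comparisons between genes use the deposited TPM, which also divides by transcript length. Library totals ran from 17234169 to 19644793 counts in 13 libraries, and were 207769 and 250178 in defect 1 and defect 2. In those 2 libraries a floor of 3 counts lies at 14.4 and 12 CPM, and DPT and MFAP5 rest on 11 and 8 counts each and PI16 on 17 and 13, so the defect levels of these 3 genes are loosely fixed. The TMM factors also separate the group, at 1.03 and 0.998 in defect 1 and 2 and 0.844 in defect 3. Fold changes come from the fits, which give a deeper library more weight, so they can differ from ratios of the CPM shown. For the 10 genes, each call in the comparisons of the design that changed without defect 3 is therefore given without it as well. Comparisons of defect with implantation B and with ECs+ implantation were not refitted without it. Of the 6 fibroblast markers PDGFRA, DCN, LUM, DPT, COL1A1 and COL1A2, none was at 0 in any group, and their summed level without TMM factors ran from 12891 to 13128 CPM in normal, 10951 to 11012 in ECs+ implantation, 60306 to 60424 in implantation A, 102104 to 107132 in defect and 106223 to 108055 in implantation B. That sum is mostly collagen, and 4 of its 6 genes belong to the set. DCN, LUM and DPT did not follow it between normal and ECs+ implantation, where they were higher, 5.11-fold, 4.27-fold and 5.03-fold, while PDGFRA was 1.29-fold lower in the fit of all 15 libraries.

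The 10 genes did not share 1 pattern over the 5 groups. PDGFRA, DCN, LUM, DPT and SFRP4 had their highest mean CPM in defect, PI16, MFAP5 and SFRP2 in implantation B, CD34 in normal and APOD in ECs+ implantation. Normal was the lowest group for 7 genes, all but PDGFRA, CD34 and APOD. For 9 of the 10, all but CD34, the level was not highest in normal tissue, and the word resting is used here as the name of the list only. Ordering the 5 groups by mean CPM gives 4 neighbouring pairs per gene, 40 in all, of which 33 passed edgeR's quasi-likelihood test in the direction of the order and 7 did not pass. The order and the test use the same counts, so the direction of a pass was largely set in advance and is no support for the order. The order of 33 of the 40 pairs was the same by median TPM. For MFAP5 the top pair changed, with a median TPM of 156.8 in implantation A and 152.1 in implantation B. Pairs within the design were taken from the fits of those comparisons and the others from a fit of all 15 libraries. In that fit the share of all genes called in either direction was 73.8% for implantation B against normal, 71.3% for ECs+ implantation against normal, 29.5% for implantation B against defect, 62.3% for ECs+ implantation against defect, 50.8% for implantation B against implantation A and 70.4% for ECs+ implantation against implantation A.

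**Figure D1:**
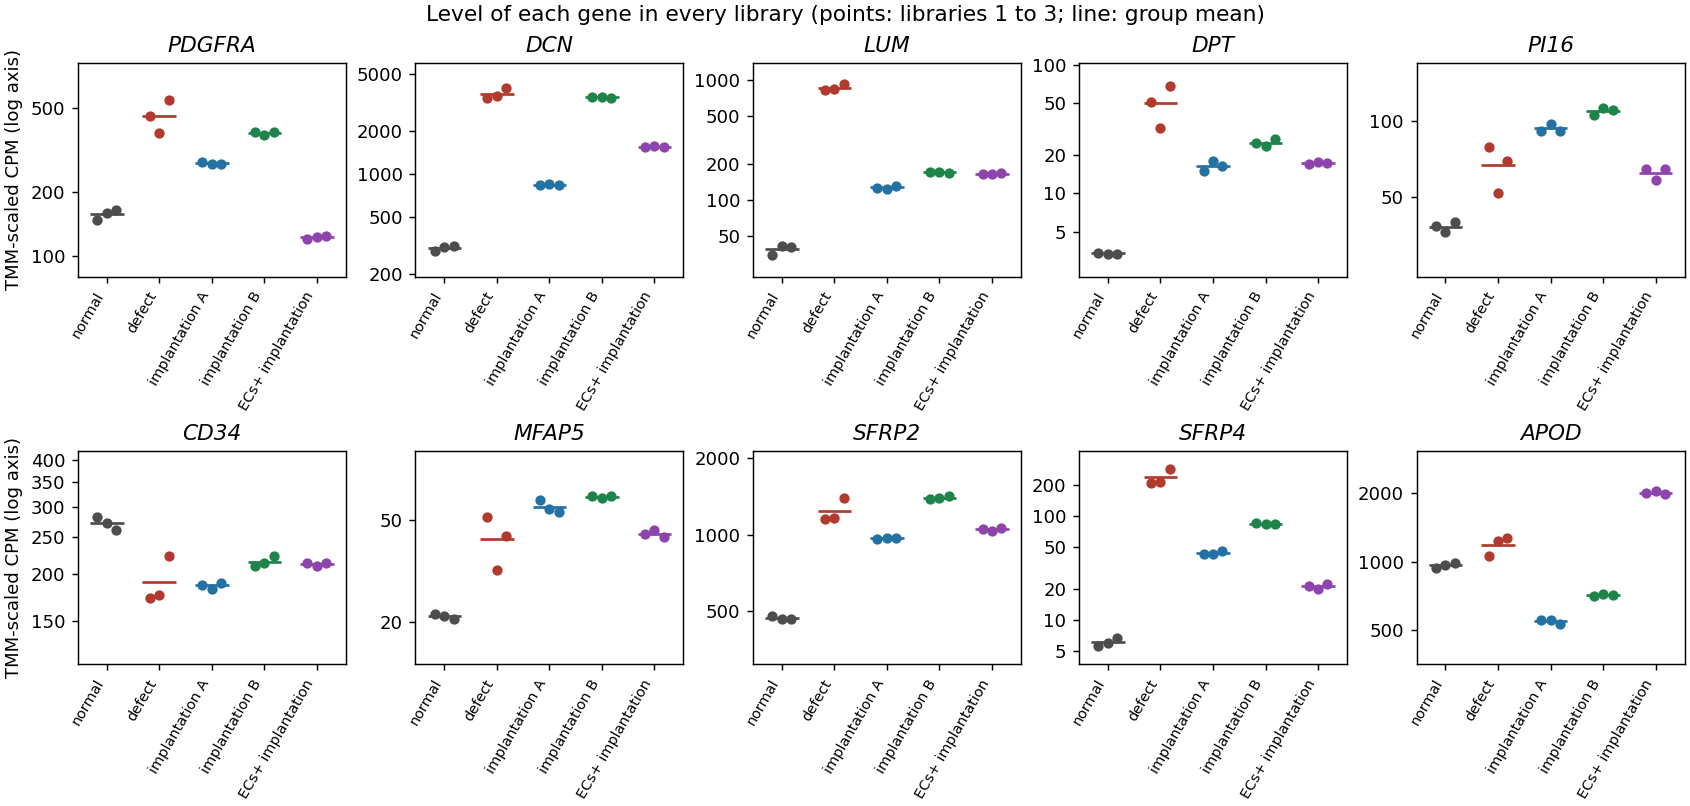
Level of each of the 10 genes in every library as TMM-scaled CPM on a log axis, with 1 panel per gene and the 5 groups along the x axis. Points are the 3 libraries of a group and lines their mean; DCN, for example, lies at 288, 307 and 311 CPM in normal and at 3401, 3483 and 3949 CPM in defect, while APOD is highest in ECs+ implantation.

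PDGFRA (chromosome 8, 40966568 to 41021440 on Sscrofa11.1) encodes the alpha receptor for platelet-derived growth factors, which drives fibroblast growth and migration. It was measured at 148, 159 and 164 CPM in normal 1 to 3, 458, 380.3 and 547 in defect and 279, 272 and 271 in implantation A. In implantation B its level was 386, 374 and 388 CPM, and in ECs+ implantation 119, 123 and 124. Every library of ECs+ implantation lay below every normal library, and defect 2 fell within the range of implantation B, so those 2 groups overlap. Defect exceeded normal 3.26-fold (log2 1.70, SE 0.0776, adjusted p = 2.01e-35). It was 1.87-fold lower in implantation A than in defect and still 1.74-fold higher there than in normal. ECs+ implantation was 3.21-fold below implantation B (log2 -1.68, SE 0.0294, adjusted p = 4.62e-44).

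The rest of the PDGF system was read from 6 tested genes, PDGFRA included. Of this and each later list, the 3 genes outside the set with the smallest adjusted p are named, with their log2 fold changes. Each list count is to be read beside the share of all genes called in either direction. It was 63.9% in defect against normal and 41.8% in implantation A against defect. It was 64.5% in implantation A against normal and 75.8% in ECs+ implantation against implantation B. With library size alone these shares were 69.1, 54.3, 65.6 and 78.9%. Between defect and normal, 5 of 6 rose and 0 fell, and PDGFD, a ligand of the beta receptor, led the others with a log2 fold change of 2.51 ± 0.0851, followed by the receptor-like PDGFRL (0.66) and the ligand PDGFA (0.87). PDGFRB, the beta receptor of pericytes and many fibroblasts, did not pass there (0.079 ± 0.0803). Against defect, 0 rose and 6 fell in implantation A, with PDGFD at -0.58, PDGFC at -0.64 and PDGFRL at -0.38. Against normal, 4 rose and 1 fell in implantation A, led by PDGFD (1.93), PDGFA (0.58) and PDGFRL (0.28). ECs+ implantation against implantation B gave 2 higher and 4 lower, with PDGFD at -1.82, PDGFRB at -0.61 and PDGFRL at 0.48. Without defect 3 the counts were 3 higher and 0 lower in defect against normal and 0 and 2 in implantation A against defect. That fit called 19.3% and 7.99% of all genes in either direction, against 63.9% and 41.8% with defect 3, which bears on every list count given without it. With library size alone as the scaling, defect against normal gave 5 higher and 1 lower.

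Since PDGFRA and PDGFRB were counted in the same library, their ratio does not depend on scaling between libraries. The TPM ratio of PDGFRA to PDGFRB was 0.122, 0.141 and 0.152 in normal and 0.453, 0.321 and 0.436 in defect. Implantation A had 0.30, 0.296 and 0.286, implantation B 0.41, 0.404 and 0.409 and ECs+ implantation 0.184, 0.199 and 0.194. The alpha receptor was thus the rarer of the pair in all 15 libraries, and the normal libraries held the lowest ratios, with no overlap with any other group. The ratios of defect and implantation B overlap.

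DCN (chromosome 5, 91678601 to 91713925) and LUM (chromosome 5, 91748871 to 91756381) encode decorin and lumican, small leucine-rich proteoglycans that bind collagen fibrils and regulate their width and spacing. They are neighbours on the chromosome, followed by KERA, another gene of the family. DCN was measured at 288, 307 and 311 CPM in normal, 3401, 3483 and 3949 in defect and 834, 852 and 832 in implantation A. Implantation B had 3454, 3410.2 and 3367 CPM and ECs+ implantation 1533, 1559.8 and 1536. Only the libraries of defect and implantation B overlap, and the difference between these groups did not pass (log2 0.11, SE 0.0547, adjusted p = 0.109). In defect DCN stood 12.1-fold above normal (log2 3.60, SE 0.0759, adjusted p = 3.47e-57). Implantation A was 4.38-fold below defect and 2.77-fold above normal, and ECs+ implantation was 2.26-fold below implantation B (log2 -1.18, SE 0.0175, adjusted p = 5.34e-47).

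LUM had another profile, with defect standing alone. Its level was 34.2, 40.9 and 40.2 CPM in normal, 827, 837 and 918 in defect and 125, 123 and 131 in implantation A. In implantation B it was 171, 170.3 and 166 CPM and in ECs+ implantation 163, 164 and 166, so every group other than defect stayed below the lowest defect library by a wide margin. In defect LUM stood 23.1-fold above normal (log2 4.53, SE 0.077, adjusted p = 1.70e-66). Implantation A was 7.03-fold below defect and 3.28-fold above normal. Between ECs+ implantation and implantation B the difference was small (log2 -0.080, SE 0.032, adjusted p = 0.0223), and its sign turned with library size alone as the scaling, to 0.16 (adjusted p = 1.81e-05). The same difference was -0.33 (adjusted p = 8.85e-06) on log2 of TPM plus 1, and it did not pass without implantation B 2 (-0.081, adjusted p = 0.0533) or in the fit of all 15 libraries (-0.045, adjusted p = 0.398).

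The TPM ratio of LUM to DCN was 0.0864, 0.0971 and 0.0937 in normal, 0.176, 0.174 and 0.168 in defect and 0.109, 0.105 and 0.114 in implantation A. It was 0.0359, 0.0361 and 0.0358 in implantation B and 0.0764, 0.0754 and 0.0779 in ECs+ implantation. The 5 groups do not overlap in this ratio, and implantation B, whose DCN level was not told apart from that of defect, had the lowest values. Of the 13 tested genes of the family, DCN and LUM included, 13 rose and 0 fell in defect against normal, with keratocan KERA (4.44 ± 0.0848), asporin ASPN (5.55) and fibromodulin FMOD (2.34) leading the others. In implantation A, 0 rose and 12 fell against defect, led by ASPN (-3.02), CHAD (-2.81) and KERA (-1.52). Against normal, 11 rose and 1 fell there, led by KERA (2.92), ASPN (2.52) and PODN (1.70). ECs+ implantation had 1 higher and 11 lower than implantation B, led by FMOD (-2.10), PRELP (-1.57) and KERA (-2.36), or 3 and 10 with library size alone. The shares of all genes called in these comparisons were, in the same order, 63.9, 41.8, 64.5 and 75.8%.

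DPT (chromosome 4, 82287657 to 82319380) encodes dermatopontin, a small matrix protein that binds decorin and supports collagen fibril assembly. It was the least abundant of the 10 in normal by TPM, at 3.71 ± 0.0375 (SD, n = 3). By library it had 3.46, 3.38 and 3.4 CPM in normal, 51.4, 32 and 68.6 in defect and 15, 17.8 and 16.3 in implantation A. Implantation B had 24.4, 23.5 and 26.6 CPM and ECs+ implantation 17, 17.6 and 17.1. All 3 defect libraries lay above all others despite their wide spread, and ECs+ implantation and implantation A overlapped, with a difference that did not pass (log2 0.074, SE 0.0927, adjusted p = 0.485). In defect DPT stood 19.2-fold above normal (log2 4.26, SE 0.153, adjusted p = 6.45e-46). It was 4.03-fold lower in implantation A than in defect, 4.77-fold higher in implantation A than in normal and 1.48-fold lower in ECs+ implantation than in implantation B. Without defect 3 the log2 fold change was 3.58 against normal (adjusted p = 4.07e-08) and -1.32 for implantation A against defect (adjusted p = 0.0253). DPT overlaps the coding gene LOC106510102, which had 0 to 14 counts per library, and reads of the pair could be split between them if strand was ignored, which is not stated.

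MFAP5 (chromosome 5, 62742520 to 62757522) encodes a glycoprotein of the fibrillin microfibrils that scaffold elastic fibres. Its levels were 21.5, 21.2 and 20.5 CPM in normal, 51.4, 32 and 43.4 in defect and 59.9, 55.2 and 53.7 in implantation A. They were 62.5, 61.4 and 62.1 CPM in implantation B and 44.3, 45.8 and 42.9 in ECs+ implantation. Normal was the lowest group without overlap, and the defect libraries spanned those of ECs+ implantation, with a difference that did not pass (log2 0.034, SE 0.0897, adjusted p = 0.76). MFAP5 stood above normal 2.05-fold in defect (log2 1.04, SE 0.106, adjusted p = 1.37e-14) and 2.66-fold in implantation A (log2 1.41, SE 0.0759, adjusted p = 5.94e-30). It was 1.3-fold higher in implantation A than in defect and 1.43-fold lower in ECs+ implantation than in implantation B. Without defect 3 neither defect comparison passed, with log2 fold changes of 0.96 (adjusted p = 0.0567) against normal and 0.46 (adjusted p = 0.455) for implantation A against defect, and the latter did not pass by limma-voom either (0.39, adjusted p = 0.332). With all libraries reduced at random to the smallest total, MFAP5 passed in none of the 4 comparisons (adjusted p from 0.0736 in implantation A against normal to 0.61 in ECs+ implantation against implantation B).

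Of the 14 tested microfibril genes, MFAP5 included, 9 rose and 1 fell in defect against normal, led by the latent TGF-beta binding protein LTBP2 (2.69 ± 0.0714), fibrillin FBN1 (2.31) and MFAP2 (1.83). In implantation A, 2 rose and 6 fell against defect, with LTBP2 at -2.41 and FBN1 at -1.21, and with FBN2 (1.16) and MFAP5 as the ones that rose. Against normal, 9 rose and 1 fell, led by MFAP2 (1.38), EFEMP1 (1.79) and FBN1 (1.10). In ECs+ implantation 1 of 13 tested was higher and 12 were lower than in implantation B, led by MFAP4 (-2.61), FBN1 (-2.40) and LTBP4 (-1.36). The fall of MFAP5 (-0.52) was the second smallest of the 12, after MFAP3 (-0.36). Over all genes, 63.9, 41.8, 64.5 and 75.8% were called in these comparisons, in the same order. With library size alone the counts were 7 higher and 5 lower in defect against normal and 6 and 5 in implantation A against defect. Without defect 3 they were 5 and 1, and 1 and 3.

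SFRP2 (chromosome 8, 75337311 to 75345926) and SFRP4 (chromosome 9, 108404314 to 108414335) encode secreted frizzled-related proteins, which bind Wnt ligands outside the cell and modulate Wnt signalling. SFRP2 was measured at 481, 465 and 467 CPM in normal, 1154, 1165 and 1394 in defect and 959, 971 and 973 in implantation A. Implantation B had 1384, 1389 and 1424 CPM and ECs+ implantation 1051, 1037 and 1057. Normal lay far below every other library, and defect and implantation B overlapped, with a difference that did not pass (log2 0.095, SE 0.0574, adjusted p = 0.213). That overlap came from defect 3 alone, as defect 1 and defect 2 lay below every implantation B library. SFRP2 stood above normal 2.74-fold in defect (log2 1.46, SE 0.0778, adjusted p = 4.24e-30) and 2.05-fold in implantation A (log2 1.04, SE 0.0673, adjusted p = 2.26e-24). The other 2 comparisons gave smaller differences, 1.34-fold lower in implantation A than in defect and 1.37-fold lower in ECs+ implantation than in implantation B. In implantation A against defect the log2 fold change of -0.42 became -0.26 without defect 3 and -0.21 with library size alone, and passed in both.

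SFRP4 had the widest span of CPM, as a ratio, of the 10. It had 5.61, 5.98 and 6.75 CPM in normal, 210.2, 212 and 285 in defect and 42.9, 42.8 and 46.1 in implantation A. Implantation B had 85.3, 84.2 and 84.3 CPM and ECs+ implantation 21.1, 19.9 and 22, and no group overlapped another. In defect SFRP4 stood 44.2-fold above normal (log2 5.47, SE 0.113, adjusted p = 3.14e-65). Implantation A was 6.17-fold below defect and 7.16-fold above normal, and ECs+ implantation was 4.12-fold below implantation B (log2 -2.04, SE 0.0585, adjusted p = 4.41e-35). The TPM ratio of SFRP2 to SFRP4 was 71.8, 65.1 and 57.8 in normal, 4.58, 4.58 and 4.09 in defect, 18.7, 18.9 and 17.6 in implantation A, 13.5, 13.8 and 14.1 in implantation B and 41.5, 43.3 and 40 in ECs+ implantation. The 5 groups did not overlap in this ratio either, with SFRP2 the more abundant of the pair in all 15 libraries.

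Of the 12 tested secreted Wnt antagonists, SFRP2 and SFRP4 included, 11 rose and 0 fell in defect against normal, led by WIF1, which binds Wnt ligands (3.18 ± 0.0804), DKK3 (2.04) and SFRP1 (0.95). In implantation A, 1 rose and 7 fell against defect, with WIF1 at -2.66 and DKK3 at -1.68, and DKK2 (0.58) as the one that rose. All 12 tested genes were higher in implantation A than in normal, led by DKK2 (1.60), SFRP1 (0.68) and SFRP5 (0.99). In ECs+ implantation 2 of 11 rose and 6 fell against implantation B, with DKK3 at -1.63, WIF1 at 0.54 and SOSTDC1 at 1.32. Calls over all genes made up 63.9, 41.8, 64.5 and 75.8% in these comparisons, in the same order. Without defect 3 the counts were 7 higher and 0 lower in defect against normal and 0 and 4 in implantation A against defect. With library size alone they were 2 and 5 in implantation A against defect and 4 and 6 in ECs+ implantation against implantation B.

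**Figure D2:**
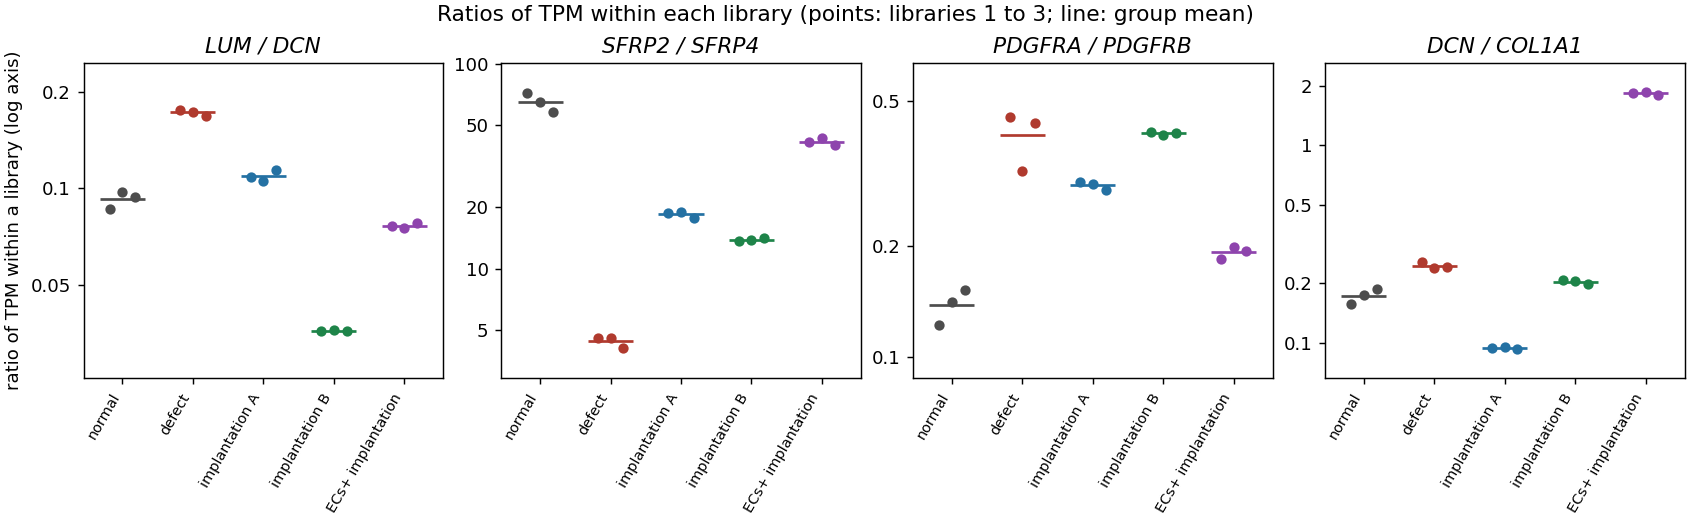
Ratios of TPM within each library on log axes, with the 5 groups along the x axis, points for the 3 libraries and lines for their mean. The SFRP2 to SFRP4 ratio is lowest in defect (4.58, 4.58 and 4.09) and highest in normal, and the DCN to COL1A1 ratio is highest in ECs+ implantation (1.83, 1.86 and 1.8).

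PI16 (chromosome 7, 32600952 to 32613505) encodes a peptidase inhibitor-like protein that marks adventitial fibroblasts in many tissues. It had 38.4, 36.4 and 40.1 CPM in normal, 79.4, 52 and 69.7 in defect and 92, 97.5 and 91.8 in implantation A. Implantation B had 106, 114 and 111 CPM and ECs+ implantation 64.6, 58.6 and 64.8. By CPM normal was lowest and implantation B highest without overlap with any other group. By TPM implantation A (103.7, 111.1 and 103.2) and implantation B (103.1, 111.1 and 108.5) overlapped. Defect and ECs+ implantation overlapped by CPM, with a difference that did not pass (log2 0.15, SE 0.0788, adjusted p = 0.101). PI16 was 2.44-fold higher in implantation A than in normal (log2 1.29, SE 0.0655, adjusted p = 2.76e-31) and 1.8-fold lower in ECs+ implantation than in implantation B. It stood 1.81-fold above normal in defect and, where DCN and LUM were lower, 1.35-fold higher in implantation A than in defect. Without defect 3 neither defect comparison passed, at 0.76 on the log2 scale against normal (adjusted p = 0.0507) and 0.54 for implantation A against defect (adjusted p = 0.204). The latter was 0.46 by limma-voom and did not pass (adjusted p = 0.161). The log2 fold change in defect against normal was 0.49 with library size alone and 1.44 with thinned libraries, and passed in both.

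CD34 (chromosome 9, 134912793 to 134937763) encodes a sialomucin of the cell surface found on adventitial fibroblasts, endothelium and blood progenitors. It was the only one of the 10 with its highest level in normal, at 282, 272 and 261 CPM, against 173, 176 and 223 in defect and 187, 182 and 189.6 in implantation A. Implantation B had 209.9, 214 and 222 CPM and ECs+ implantation 213, 209 and 213. No normal library overlapped another group, and the other 4 groups lay close together by CPM. Defect overlapped each of them only as a range, with defect 1 and defect 2 below all their libraries and defect 3 above. By TPM ECs+ implantation (104.3 to 107.1) lay below every other group. Defect (117.1 to 126.4) lay below implantation A (130.2 to 133.1) and implantation B (128.4 to 136.7) by TPM. CD34 was 1.26-fold lower in defect than in normal (log2 -0.34, SE 0.0791, adjusted p = 1.29e-04) and 1.46-fold lower in implantation A than in normal (log2 -0.55, SE 0.0589, adjusted p = 1.38e-13). Its log2 fold change in defect was -0.64 without defect 3 (adjusted p = 6.06e-04) and -0.68 with library size alone.

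In implantation A against defect CD34 passed (log2 -0.21, SE 0.0795, adjusted p = 0.0248), but the libraries overlap and the call was lost without any one implantation A library (-0.20, -0.18 and -0.21, adjusted p = 0.102, 0.139 and 0.0841). Its sign turned without defect 3 (0.095, adjusted p = 0.754), with library size alone (0.072, adjusted p = 0.272) and on log2 of TPM plus 1 (0.11, adjusted p = 0.148). With the replicate number as a block it was -0.19 and did not pass (adjusted p = 0.141). In ECs+ implantation against implantation B CD34 did not pass (log2 -0.059, SE 0.0301, adjusted p = 0.0696). There it was 0.18 with library size alone (adjusted p = 5.06e-07), -0.33 on log2 of TPM plus 1 (adjusted p = 2.13e-05) and -0.089 without implantation B 1 (adjusted p = 0.0204), so neither its direction nor its call was the same in all settings.

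Since endothelium also makes CD34, 12 endothelial markers were read beside it. In defect against normal 1 rose and 10 fell, and their summed level was 2421 to 2602 CPM in defect and 4619.7 to 4759 in normal. In implantation A against normal 0 rose and 12 fell, with sums of 2577 to 2598 CPM in implantation A. ECs+ implantation had 11 higher and 1 lower than implantation B, with sums of 4331 to 4414 and 1766 to 1774 CPM, and there CD34 did not pass. Of the defining markers, PECAM1 had a log2 fold change of -0.32 in defect against normal and 1.41 in ECs+ implantation against implantation B, and CDH5 had -0.70 and 0.79. None of the 12 was at 0 in any group. The list of haematopoietic progenitor markers held PTPRC, SPN, GATA2 and MYB. Of the 3 tested, 2 rose and 1 fell in defect against normal, with sums of 33.7 to 104 CPM in defect and 98.6 to 109 in normal. In defect 1, 3 of the 4 genes were at 0. The part of endothelial and blood cells in the CD34 level was not tested.

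APOD (chromosome 13, 132514546 to 132562594) encodes apolipoprotein D, a secreted carrier of small lipids. Its levels were 935, 968 and 992 CPM in normal, 1060.4, 1233 and 1274 in defect and 557, 556 and 534 in implantation A. They were 706, 719.6 and 716 CPM in implantation B and 2005, 2048 and 1982 in ECs+ implantation. The groups do not overlap, and both implantation A and implantation B lay below normal. APOD was 2.75-fold higher in ECs+ implantation than in implantation B (log2 1.46, SE 0.0198, adjusted p = 1.12e-48), and was the one gene of the 10 that rose there. It was 1.76-fold lower in implantation A than in normal (log2 -0.82, SE 0.0668, adjusted p = 5.55e-19) and 2.23-fold lower than in defect. The rise of 0.34 in defect against normal did not pass with library size alone (0.060, adjusted p = 0.236). Of 8 Schwann cell markers, read because nerve also makes APOD, 1 rose and 5 fell in ECs+ implantation against implantation B, although the summed level was higher, at 901 to 921 against 788 to 805 CPM. In implantation A against normal 6 rose and 1 fell. Their part in the APOD level was not tested.

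**Figure D3:**
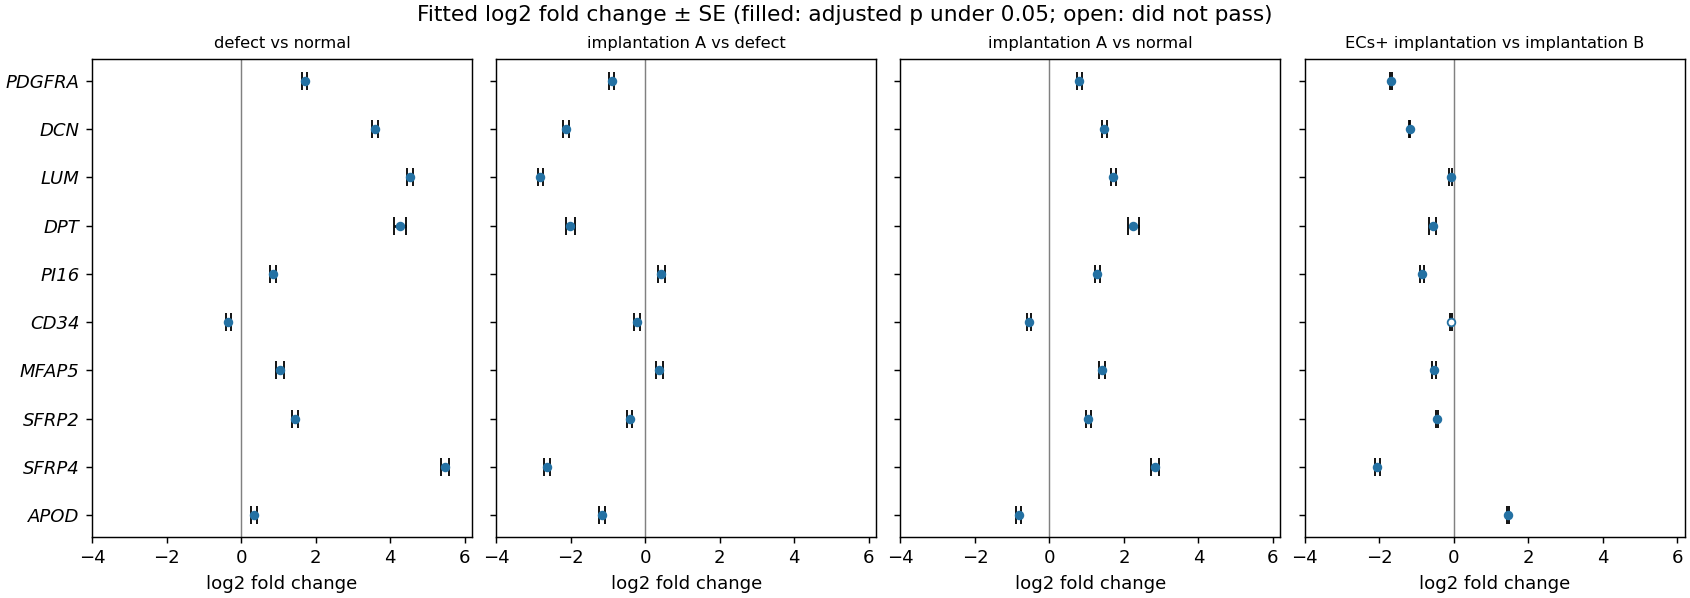
Fitted log2 fold change of each of the 10 genes in the 4 comparisons of the design, with the gene on the y axis, the standard error as bars and open points where the test did not pass. In defect against normal 9 points lie right of 0 and CD34 left of it; in ECs+ implantation against implantation B only APOD lies right of 0, and CD34 is the open point.

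In defect against normal, 9 of the 10 genes rose and 1 fell, from SFRP4 (44.2-fold), LUM (23.1-fold), DPT (19.2-fold) and DCN (12.1-fold) at one end to PI16 (1.81-fold) and APOD (1.27-fold) at the other, with CD34 lower. Over all 17855 genes tested 32% rose and 31.9% fell. The median log2 fold change of the 10 was 1.58, against -0.048 over all genes. The universal fibroblast genes are a list of fibroblast genes that many tissues share, none of them among the 10. Of these, 19 of 25 rose and 5 fell, led by SERPINF1 (3.80 ± 0.0758) and the complement genes C3 (3.05) and C1S (2.86). The summed level of the list went the other way, at 27720 to 27996 CPM in defect and 43327 to 45829 in normal. Its largest part, GSN, was among the genes that fell (-1.35). Genes of activated fibroblasts had 13 of 16 higher and 1 lower, led by COL12A1 (4.16), COMP (4.30) and TNC (3.49), or 13 and 3 with library size alone. That list holds ACTA2 and TAGLN, which smooth muscle also makes.

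Markers of other cells moved in the same comparison. Of 10 macrophage markers 10 rose, with sums of 818 to 931 CPM in defect and 497 to 522 in normal, and of 6 keratinocyte markers 5 rose and 1 fell, with sums of 2874 to 2926 and 1068 to 1113 CPM. Without defect 3 the macrophage count was 4. Of 8 smooth muscle markers 2 rose and 4 fell, with sums of 2623 to 2654 CPM in defect and 3998 to 4157 in normal. None of these markers was at 0 in either group, and their part in the levels of the 10 genes was not tested. Without defect 1 and 2, which leaves 1 defect library assumed to vary like the others, 9 of the 10 rose and 1 fell, with 60.9% of all genes called. Without defect 3, 7 rose and 1 fell, with 19.3% of all genes called, and PI16 and MFAP5 did not pass. With library size alone, where the median of all genes moved to -0.41 and the share of higher calls among all calls to 28%, 8 rose and 1 fell. On log2 of TPM plus 1, where that share was 32%, 9 rose and 1 fell.

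Between implantation A and defect DCN, LUM, DPT and SFRP4 were lower in the implanted tissue. Of the 10 genes, 2 rose (PI16 and MFAP5) and 8 fell, with LUM (7.03-fold lower), SFRP4 (6.17-fold), DCN (4.38-fold) and DPT (4.03-fold) at the head. Over all genes tested 20.4% rose and 21.4% fell. The median log2 fold change was -1.03 over the 10 and 0.021 over all genes. Of the 25 universal fibroblast genes 4 rose and 19 fell, led by C3 (-3.31 ± 0.0732), C1S (-2.26) and C1R (-1.96), and of the 16 activated fibroblast genes 2 rose and 13 fell, led by COMP (-3.42), FAP (-2.22) and LOX (-1.57). Macrophage markers fell in 10 of 10, to sums of 331 to 339 CPM in implantation A, and 8 of 8 smooth muscle markers rose, from sums of 2623 to 2654 to 5978 to 6046 CPM. Of 8 Schwann cell markers 5 rose and 0 fell, of 6 keratinocyte markers 2 rose and 4 fell, and of 12 endothelial markers 4 rose and 5 fell. Their part was not tested.

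This comparison depended on defect 3. Library size alone and log2 of TPM plus 1 moved the calls over all genes, while of the 10 genes only CD34 changed its call. Without defect 3, 0 of the 10 rose and 7 fell, with 7.99% of all genes called, PI16, MFAP5 and CD34 did not pass, and the log2 fold change of PDGFRA went from -0.90 to -0.60 (adjusted p = 1.11e-04). The universal fibroblast list then had 3 higher and 12 lower. With library size alone the median of all genes moved to 0.33 and the share of higher calls to 81.8%, and 2 of the 10 rose and 7 fell. On log2 of TPM plus 1 that share was 83.1%, and again 2 rose and 7 fell. Without defect 1 and 2, 2 rose and 8 fell, with 41.2% of all genes called.

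Implantation A was also compared with normal, using the same libraries of these groups as the comparisons above. Of the 10 genes, 8 rose and 2 (CD34 and APOD) fell, led by SFRP4 (7.16-fold higher), DPT (4.77-fold), LUM (3.28-fold) and DCN (2.77-fold). Over all genes tested 32.2% rose and 32.3% fell, and the medians were 1.35 over the 10 and -0.025 over all genes. Of the universal fibroblast genes 13 of 25 rose and 8 fell, with SERPINF1 at 2.15 ± 0.0654, CFD, complement factor D, at -1.15 and CLEC3B, tetranectin, at -1.01. The summed level of the list was 25526 to 25909 CPM in implantation A, below the 43327 to 45829 CPM of normal. Of the activated fibroblast genes 15 of 16 rose and 0 fell, led by COL12A1 (2.64), TNC (2.21) and POSTN (2.36). Keratinocyte markers rose in 6 of 6, to sums of 2578 to 2592 CPM. Of 8 smooth muscle markers 7 rose and 1 fell, with sums of 5978 to 6046 CPM in implantation A and 3998 to 4157 in normal, and of 10 macrophage markers 1 rose and 5 fell. The part of these cells in the levels of the 10 genes was not tested. The count for the 10 stayed at 8 and 2 without any one library, with library size alone and on log2 of TPM plus 1, where the share of higher calls among all calls was 66.9%.

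ECs+ implantation and implantation B differed in 9 of the 10 genes, in a comparison that called 75.8% of all genes in either direction. Of the 10 genes, 1 rose (APOD, 2.75-fold), 8 fell and CD34 did not pass. The falls ran from SFRP4 (4.12-fold), PDGFRA (3.21-fold) and DCN (2.26-fold) to LUM (1.06-fold). Over the 17204 genes tested 37.8% rose and 38.1% fell, and the medians were -0.54 over the 10 and 0.018 over all genes. With library size alone, where the median of all genes moved to 0.26 and the share of higher calls to 64%, 3 rose (APOD, LUM and CD34) and 7 fell. On log2 of TPM plus 1, where that share was 34.1%, 1 rose and 9 fell. Of the universal fibroblast genes 9 of 25 rose and 13 fell, with THY1, a surface glycoprotein, at -2.24 ± 0.0207, MGP, matrix Gla protein, at 1.94 and TNXB, a tenascin, at -1.69. The summed level of the list was higher in ECs+ implantation, at 43082 to 44037 against 24429 to 24882 CPM. Its largest part, GSN, was among the genes that rose (1.07). Of the activated fibroblast genes 3 of 16 rose and 13 fell, led by COL1A1 (-4.39 ± 0.0133), POSTN (-4.76) and SPARC (-2.02).

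The ECs+ implantation libraries also stood apart in other cell markers. All 6 keratinocyte markers were lower, with sums of 2.87 to 3.24 CPM against 2169.7 to 2214 in implantation B and KRT15 at 0, and 9 of 10 macrophage markers were lower, with sums of 392 to 402 against 886 to 895 CPM. Of 8 smooth muscle markers 7 were higher and 1 was lower, with sums of 4119.9 to 4288 against 2676 to 2701 CPM. Of 4 adipocyte markers tested 3 were higher and 1 was lower, but the sums of the adipocyte list overlapped, at 40.2 to 45.3 against 39.7 to 42.6 CPM. Endothelial markers, given with CD34, were mostly higher. Normal held keratinocyte sums of 1068 to 1113 CPM. The part of this difference in tissue content in the levels of the 10 genes was not tested. One label line of each ECs+ implantation sample names the third normal sample, and the group here follows the titles and column names.

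DCN and COL1A1, the main chain of type I collagen, changed by different amounts between these groups. The TPM ratio of DCN to COL1A1 was 0.208, 0.204 and 0.197 in implantation B and 1.83, 1.86 and 1.8 in ECs+ implantation. In the other groups it was 0.158, 0.174 and 0.186 (normal), 0.256, 0.238 and 0.243 (defect) and 0.0936, 0.0956 and 0.0927 (implantation A). ECs+ implantation was thus the one group in which DCN was more abundant than COL1A1 per length, and implantation A had the lowest ratio, with no overlap among the 5 groups.

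The share of each gene in the set differed by group as well. The summed TPM of the 10 genes was 2005, 2049 and 2086 in normal, 8562, 8617 and 8313 in defect and 3395, 3458 and 3370.3 in implantation A. It was 6885, 6900.0 and 6855 in implantation B and 4048, 4169 and 4114 in ECs+ implantation. The groups do not overlap, and defect held the highest sums. DCN made up 19.5, 20.3 and 20.4% of the sum in normal, where APOD was the largest part at 39.6, 40.2 and 40.7%, and 56.6, 56.8 and 56.2% in defect. In implantation A its share was 35.9, 36.4 and 36%, in implantation B 63.3, 62.9 and 62.3% and in ECs+ implantation 39.2, 39.5 and 39.3%. SFRP2 made up 28.9, 29 and 29.4% in implantation A, its highest share, and 13.4, 13.2 and 13.8% in defect, its lowest. LUM reached 9.95, 9.86 and 9.46% in defect and was 3.91, 3.83 and 4.1% in implantation A, the next highest.

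**Figure D4:**
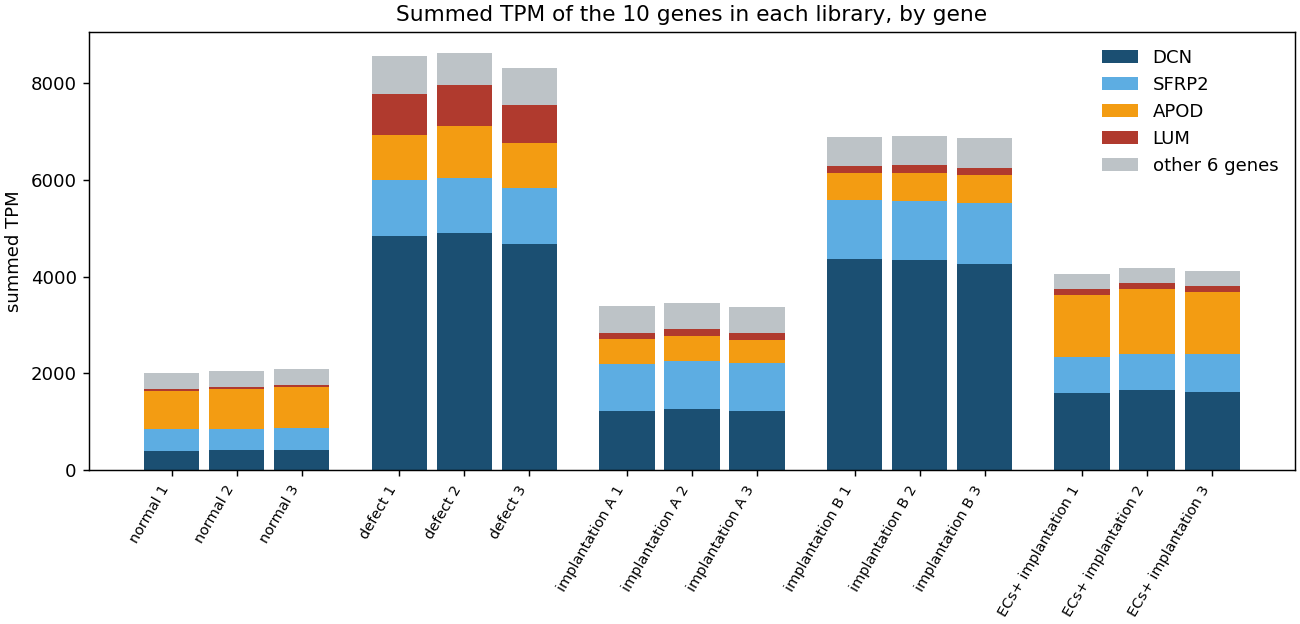
Summed TPM of the 10 genes in each of the 15 libraries, stacked by gene for DCN, SFRP2, APOD and LUM and for the other 6 together. The sums run from 2005 in normal 1 to 8617 in defect 2, and the APOD part is the largest in the 3 normal libraries.

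For each gene the 3 others with the most similar pattern were sought among 10826 genes with a symbol and a mean log2 CPM of at least 3. The measure was Pearson's r of log2 CPM plus 1 over the 13 libraries with at least 1000000 counts. These libraries form 5 groups, 1 of which then has a single library, so r mostly restates group means and is given as a description with no p. PDGFRA was closest to FBN1 (0.998), SLCO3A1 (0.996) and SMOC2 (0.994), and DCN to WNT5A (0.996), SNX7 (0.996) and EDIL3 (0.996). LUM was closest to PLXDC2 (0.993), SELP (0.991) and ALDH2 (0.982), and DPT to LDHA (0.993), KREMEN1 (0.991) and CTSC (0.988). Among the 3 closest to PI16 were PCDH18 (0.992) and ZNFX1 (0.985), and among the 3 closest to MFAP5 were RBFOX2 (0.984) and ALDH1A1 (0.983). SFRP2 was closest to ANXA1 (0.997), CREB3L2 (0.994) and RAB1A (0.993), and SFRP4 to DHX9 (0.997), COL3A1 (0.995) and RCN1 (0.991), where COL3A1 is the chain of type III collagen. APOD was closest to SLA-DQB1 (0.996), PLTP (0.993) and CENPJ (0.99), the first of which has near-identical copies that can share reads. CD34 had the lowest values, with TDRD12 (0.977), STAB1 (0.966) and WBP2 (0.966).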

How the data were processed

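Polyadenylated RNA of 15 libraries was sequenced, and the labels name the TruSeq RNA Library Prep Kit v2 for the preparation. The authors deposited raw counts per gene and TPM values for 26654 genes. Tools listed without settings in the submitters' processing notes are fastp, HISAT2, HTSeq and DESeq2, with the build Sscrofa11.1. How the deposited TPM were made, and whether counts used strand, are not given in the sources used here. Columns were matched by sample title. Coordinates come from a RefSeq gene table of that build, in which all 10 genes were found by symbol.

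Counts were analysed with edgeR 4.0.16 in R 4.3.3 (filterByExpr, TMM, glmQLFit robust, glmQLFTest, two-sided), with Benjamini-Hochberg adjustment over all genes and a threshold of 0.05. Normal, defect and implantation A shared a fit of 9 libraries. ECs+ implantation and implantation B had a fit of 6. CPM levels use TMM factors of all 15 libraries, and summed marker levels use library totals, while fold changes come from the fits, so their ratios can differ. The defect fold changes of genes with few counts rest mostly on defect 3. Standard errors are Wald errors of the fit. DESeq2 1.42.0 and limma 3.58.1 were among the alternatives. The code was tested on simulated counts. Of each list, the 3 genes outside the set with the smallest adjusted p and a mean log2 CPM of at least 3 are named, with log2 fold changes in parentheses (± SE where given). All 10 members are described whatever their result. One gene that the rule on similar patterns would name is not reported here. The members and lists were chosen with earlier results of these data known. Depth is the count total per library, and floors cover counting error only.

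Same-numbered libraries of compared groups correlated in their deviations from group means by -0.0212 to 0.0215. These values cannot decide whether replicate numbers pair the libraries, since deviations that are mostly counting or technical noise can give them with or without pairing.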

Additional observations from a re-analysis of the deposited data

How the results depend on the processing

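The count of the 10 genes that passed was 10 in defect against normal, 10 in implantation A against defect, 10 in implantation A against normal and 9 in ECs+ implantation against implantation B. The shares of all genes called were 63.9, 41.8, 64.5 and 75.8%. Over the fits that leave out one library each the count ran from 8 to 10, 7 to 10, 10 to 10 and 8 to 10. The shares of all genes called ran from 19.3 to 66%, 7.99 to 41.3%, 58.1 to 65.3% and 71 to 74.2%. In implantation A against defect the count was 6 with all libraries reduced to the smallest total, where 16.9% of all genes were called, and 5 with at least a 2-fold change asked for, where 11.5% were. In ECs+ implantation against implantation B the latter gave 4, with 26.3% of all genes called. Without these changes 41.8% and 75.8% were called. The reduced tables hold fewer counts, and DPT did not pass their filter. Signs turned for CD34 in implantation A against defect with library size alone (0.072), on log2 of TPM plus 1 (0.11, also with no filter), on log2 of TPM plus 0.1 (0.11) and without defect 3 (a range of -0.23 to 0.095 over the single libraries left out). In ECs+ implantation against implantation B they turned with library size alone for LUM (0.16) and CD34 (0.18). The cause was not tested. With the replicate number as a block, 10, 9, 10 and 9 genes passed, and only CD34 in implantation A against defect lost its call. The block fits called 59.7, 35.1, 63.1 and 75.3% of all genes. The list counts without defect 3, without both shallow libraries and with library size alone were added after seeing the data. With defect 1 and 2 as the only defect libraries, the differences of PI16 and MFAP5 from normal did not pass; the parts of depth and of the number of libraries in this were not tested.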
